A study of Homo sapiens with 8 samples.

Results

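The 9 genes described here, MYRF, MBP, CNP, GPR17, ZNF488, UGT8, TCF7L2, SIRT2 and TMEM98, act in the maturation of oligodendrocytes or in the myelin they make. They were listed by name for their known roles. All 9 were among the 58217 genes with an annotated transcript, and 8 of them were among the 18201 genes with enough counts to be tested. GPR17 was the exception, with 12 estimated counts over all libraries.

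The samples were oligodendrocyte progenitor cells (OPCs). They had been differentiated from human embryonic stem cells of the H9 line, and SOX10 was not overexpressed in them. They were seeded in OPC medium on 3 coatings and grown there for 2 days. Matrigel, a basement membrane extract and the control, gave 2 libraries (replicates 2 and 3). VN, the cell adhesion protein vitronectin, gave 3 libraries, and VNP2, a vitronectin-derived peptide carried by a mussel adhesive protein, gave 3. All came from the same line, and nothing in the labels says that replicates were separate differentiations, so p-values measure the spread between these libraries, which may be technical. Every group received the same OPC medium, which held retinoic acid, the hedgehog agonist SAG, insulin and bFGF, and no group was moved to a medium for myelination.

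As background, an oligodendrocyte progenitor leaves the cell cycle, passes through a premyelinating stage and then switches on the genes of the myelin sheath. MYRF is the transcription factor that drives this last step. It is made as a membrane-bound precursor that cuts itself, and TMEM98 is a membrane protein that binds it and blocks the cut. TCF7L2 is a transcription factor of the premyelinating stage, ZNF488 a zinc finger protein that promotes differentiation together with OLIG2, and GPR17 a receptor of committed progenitors that holds back maturation. MBP and CNP are proteins of the sheath itself, UGT8 is an enzyme that makes its galactolipids, and SIRT2 is a deacetylase abundant in the sheath.

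Polyadenylated RNA was sequenced to a depth of 37997896 to 39429453 estimated counts per library. No pair of libraries of a group agreed within sampling noise: over the genes tested, chi-square values of replicate pairs had medians from 0.707 to 2.62, where 0.455 would come from sampling. The higher values, 2.25 and 2.62, were those of VN replicate 1 set against either of its fellow libraries, which gave 0.782 when set against each other. Genes used as markers of other cell types were also present. Their levels are given in TPM, which is corrected for transcript length and for depth. The summed level of 7 epithelial genes was 162 to 173 TPM on Matrigel, 94.4 to 96.2 on VN and 104 to 108 on VNP2. KRT8 and KRT18 held most of that sum, with means of 103 and 56.5 TPM on Matrigel. Of the 7 genes 4 had a mean under 1 TPM. The summed level of 10 neuronal genes was 1005 to 1041, 1130 to 1168 and 1188 to 1212 TPM. In bulk RNA, fewer cells of a type and less RNA per cell cannot be told apart.

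Levels differed widely among the 9 genes. TMEM98 was highest, with a mean of 237 TPM over the 8 libraries (range 231 to 250). TCF7L2 followed at 106 TPM (102 to 110) and CNP, an enzyme of non-compact myelin that is also made early in the lineage, at 73.6 TPM (71.2 to 77). The ranges of these 3 genes did not overlap.

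SIRT2 came next, at 23.2 TPM (22.0 to 24.8). ZNF488 had 9.97 TPM (7.78 to 14.1) and UGT8, which makes the galactolipids of myelin, 8.81 TPM (7.89 to 10.1). ZNF488 lay above UGT8 in 5 of 8 libraries, so the order of that pair was not fixed. MBP had 5.17 TPM (3.64 to 6.55) and MYRF 3.81 TPM (2.72 to 5.62), with overlapping ranges and MBP higher in 7 of 8 libraries. GPR17 stood at 0.0319 TPM, and was at 0 in 3 libraries, namely Matrigel replicate 2 and VN replicates 1 and 3.

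**Figure D1:**
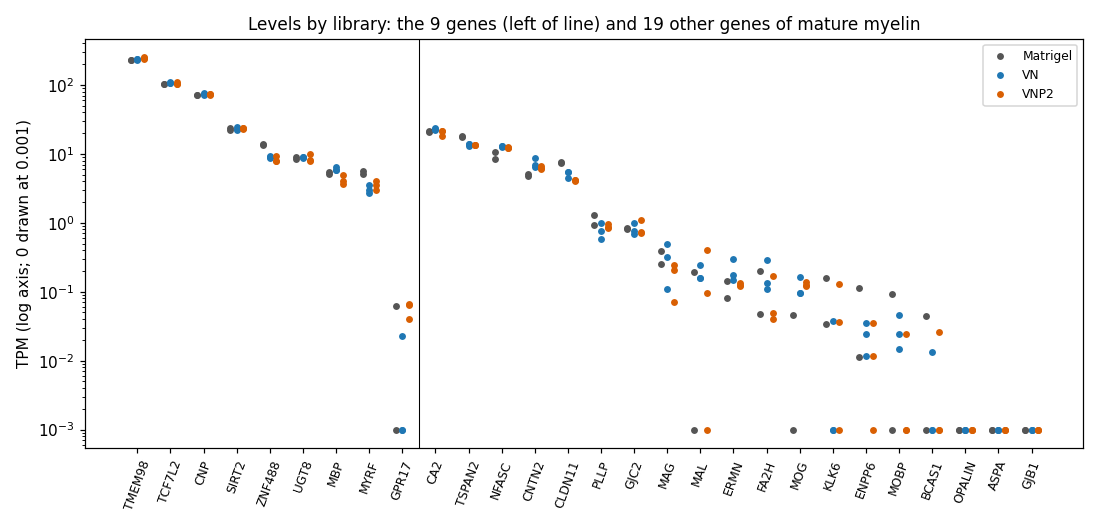
Level of each gene in TPM (log axis) in each of the 8 libraries, coloured by substrate, with values of 0 drawn at 0.001. The 9 genes stand left of the line, from TMEM98 at 237 TPM down to GPR17 at 0.0319, and 19 other genes of mature myelin stand right of it, of which 14 had a mean under 1 TPM.

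Most other genes of the mature sheath were close to absent. Of 20 such genes 14 had a mean level under 1 TPM, among them MAG (0.259 TPM) and MOG (0.099 TPM), adhesion proteins of the sheath, and OPALIN, ASPA and GJB1 had no counts. SOX10, a transcription factor of the oligodendrocyte lineage, had 20 estimated counts over all libraries, none of them on Matrigel. Among 8 Schwann cell markers, which bear on MBP because those cells also make it, 5 were under 1 TPM, EGR2 (0.147 TPM) included. NGFR, a neurotrophin receptor that other cells make too, had 25.4 TPM and PMP22 7.06 TPM.

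The MBP gene (ENSG00000197971, chr18:76978827-77133683, minus strand, GRCh38) has an upstream and a downstream start region besides scattered other starts, and nearly all of its reads were assigned to transcripts from the upstream one. Transcripts from the upstream start are called golli and encode other proteins than the classic myelin basic proteins, which begin at a start codon 88253 bases downstream. The beginnings of the coding sequence of the most abundant transcript of each kind are shown because they tell these proteins apart, with the start codon in capitals.

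MBP-205: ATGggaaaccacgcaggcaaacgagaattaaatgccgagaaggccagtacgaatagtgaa

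MBP-207: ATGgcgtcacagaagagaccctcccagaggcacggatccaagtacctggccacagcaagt

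The MBP-205 run lies on chr18:77105211-77105261 and, across an intron, chr18:77066377-77066385. The MBP-207 run lies in a single exon at chr18:77016949-77017008. MBP-205, a golli transcript of 197 codons, contains 177 of the 480 coding bases of MBP-207, a classic transcript of 160 codons. Golli transcripts that hold the whole classic sequence also exist, and MBP-202 with 304 codons is one of them.

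Transcripts from the upstream start had 4.58 and 4.45 TPM in the Matrigel libraries, 4.55, 4.49 and 4.36 TPM in those from VN, and 3.12, 3.55 and 3.24 TPM in those from VNP2. The 3 VNP2 libraries were the lowest, and in TPM those on VN and Matrigel lay together. In estimated counts the 3 substrates did not overlap, with 469 and 459 in the Matrigel libraries, 447, 419 and 401 in the VN libraries and 319, 333 and 316 in the VNP2 libraries. Transcripts from the downstream start had 0.291 and 0.190 TPM with Matrigel, 0.378, 0 and 0.806 TPM with VN, and 0.220, 0.656 and 0.0405 TPM with VNP2, with no separation of the substrates.

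As a share of MBP, the upstream start held 78.9% ± 7.5 of the TPM (SD, n = 8) and 93.9% ± 1.94 of the estimated counts. The downstream start held 5.96% ± 4.75 of the TPM, or 71.7 estimated counts summed over all libraries, so classic MBP was near the limit of detection at this depth. The remaining 9 transcripts, which begin at other places, held 15.2% ± 4.95 of the TPM (10.5% with Matrigel, 19.6% with VN and 13.8% with VNP2) and 3.97% of the estimated counts. Neither the upstream share (36.5% of its variance lay between substrates, p = 0.3, exact permutation test over 560 assignments, one-sided) nor that of the other starts (62.5%, p = 0.121, same test) passed the test. Salmon divides shared reads between transcripts, and the error of that division is not in the values used here.

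**Figure D2:**
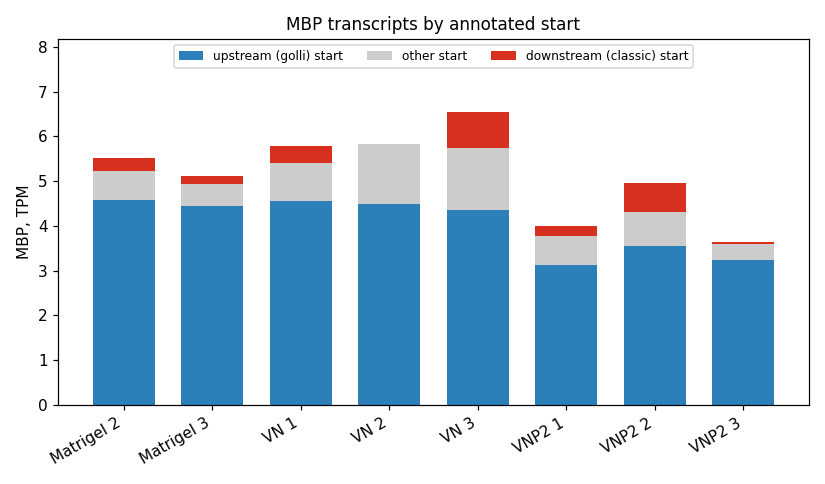
MBP level in TPM in each library, divided by the annotated start of its transcripts; bars are stacked and begin at 0. The upstream part is 4.36 to 4.58 TPM on Matrigel and VN and 3.12 to 3.55 TPM on VNP2, and the downstream part never exceeds 0.806 TPM.

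The primers with which the study measured MBP and CNP by quantitative PCR were matched to the annotated transcripts, to see which transcripts that assay reads. The amplicons are shown with the primer sites in capitals.

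MBP amplicon: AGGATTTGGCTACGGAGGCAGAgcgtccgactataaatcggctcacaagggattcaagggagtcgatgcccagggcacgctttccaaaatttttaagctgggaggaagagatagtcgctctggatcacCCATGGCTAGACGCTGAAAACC

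CNP amplicon: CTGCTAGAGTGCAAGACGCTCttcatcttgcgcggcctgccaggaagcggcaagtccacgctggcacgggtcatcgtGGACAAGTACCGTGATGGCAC

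The MBP amplicon of 150 bases spans an exon junction (chr18:76984775-76984874 and chr18:76980422-76980471). This product could be read from 15 of 48 MBP transcripts, not including MBP-205. Those 15 carried 5.69% of MBP by TPM (range 3.64 to 7.35%) and 139 estimated counts in all. In 1 more transcript the primers lie 4453 bases apart end to end. The CNP amplicon of 98 bases lies in coding sequence at chr17:41968200-41968297, and its primers matched 7 of 12 transcripts that carried 92.5% of CNP by TPM. The matched transcripts thus held most of CNP and little of MBP in these libraries. The study used these primers on other cells, which overexpressed SOX10 and were kept in a maturation medium, and it also stained for MBP protein. Which MBP transcripts those cells made cannot be read from these libraries.

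Between substrates, MYRF and ZNF488 were lower on VN and on VNP2 than on Matrigel, and MBP was lower on VNP2 than on both other coatings. The remaining 5 genes tested did not pass the test in any pair. Over the 3 substrates together 3 of 8 genes were called (adjusted p under 0.05 by the quasi-likelihood test of edgeR, with Benjamini-Hochberg adjustment), where 19.3% of all genes tested were called. The values that follow are normalized read counts, which compare libraries for a given gene but not genes with each other.

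MYRF (chr11:61752642-61788518) had normalized counts of 704 and 628 in the Matrigel libraries, of 429, 317 and 353 in the VN libraries, and of 419, 483 and 353 in the VNP2 libraries. Both Matrigel libraries lay above the other 6, and VN and VNP2 overlapped. MYRF fell by 0.87 on the log2 scale on VN (SE 0.143, edgeR adjusted p = 0.00276), which is 45.1% lower, and by 0.68 on VNP2 (SE 0.142, adjusted p = 0.00841), or 37.4% lower. The latter call rested on Matrigel replicate 2: without it the adjusted p was 0.0847.

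MYRF is read from alternative first exons. MYRF-201, of 1111 codons, carried 57.9% ± 6.32 of its TPM (SD, n = 8) and MYRF-202, of 1151 codons, 26.3% ± 9.12. Neither transcript passed the test (adjusted p = 0.21 and 0.605 across the substrates, edgeR), and the share of MYRF-201 was 59.0% with Matrigel, 55.7% with VN and 59.4% with VNP2. MYRF overlaps TMEM258 on the opposite strand, and whether the counting used strand is not given in the sources used here.

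ZNF488 (chr10:47365496-47384273) had normalized counts of 1085 and 1125 with Matrigel, of 714, 685 and 648 with VN, and of 707, 594 and 604 with VNP2. Matrigel stood above every other library, and VN and VNP2 overlapped. ZNF488 fell by 0.69 on the log2 scale on VN (SE 0.0814, edgeR adjusted p = 0.000289) and by 0.80 on VNP2 (SE 0.0816, adjusted p = 7.79e-05), that is by 38.2% and 42.6%. It was called in both pairs under each of the 16 alternatives tried. All of its reads were assigned to ZNF488-201, the single transcript among 46 tested of these genes that was called (adjusted p = 0.0277, edgeR), against 1.14% of all transcripts tested.

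The normalized counts of MBP were 470 and 434 with Matrigel, 473, 464 and 521 with VN, and 325, 403 and 294 with VNP2. The 3 VNP2 libraries were the lowest, and Matrigel and VN overlapped. On VNP2 MBP fell by 0.41 on the log2 scale from Matrigel (SE 0.122, edgeR adjusted p = 0.0435) and by 0.51 from VN (SE 0.111, adjusted p = 0.0239), or by 24.8% and 30%.

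Both calls were close to the threshold. The former was lost without any 1 of 5 libraries, Matrigel replicates 2 and 3, VN replicate 2 and VNP2 replicates 1 and 3 (edgeR adjusted p = 0.241, 0.114, 0.057, 0.114 and 0.135). The latter was lost without any 1 of 4, VN replicates 2 and 3 and VNP2 replicates 1 and 3 (0.0548, 0.0879, 0.0946 and 0.0869). The average length of MBP transcripts, for which counts were corrected, varied from 3083 to 4028 bases among libraries. Without that correction MBP fell by 0.57 on VNP2 from Matrigel (adjusted p = 0.000276). MBP-205 alone had normalized counts of 477 and 454 with Matrigel, 434, 391 and 394 with VN, and 315, 329 and 281 with VNP2, and did not pass the test over all transcripts (adjusted p = 0.107, edgeR). Its counts did not overlap between any pair of substrates. That is common with so few libraries. Of all genes tested, 44.4% did not overlap between VN and Matrigel, 48.1% between VNP2 and Matrigel and 23.6% between VNP2 and VN. The share over all transcripts was not computed.

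The other 5 genes differed little. CNP had 4647 and 4639 normalized counts on Matrigel and 4354 to 4751 on the other coatings, with log2 changes of -0.04 on VN (SE 0.0437) and -0.05 on VNP2 (SE 0.0437). TCF7L2 ran from 5147 to 5509, and TMEM98 from 6328 to 6994. SIRT2 had 930 to 1056, and UGT8 449 to 578. Among these 5 genes and the 3 pairs the smallest adjusted p was 0.346, for TMEM98 between VNP2 and VN (log2 change 0.07, SE 0.0357, edgeR).

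**Figure D3:**
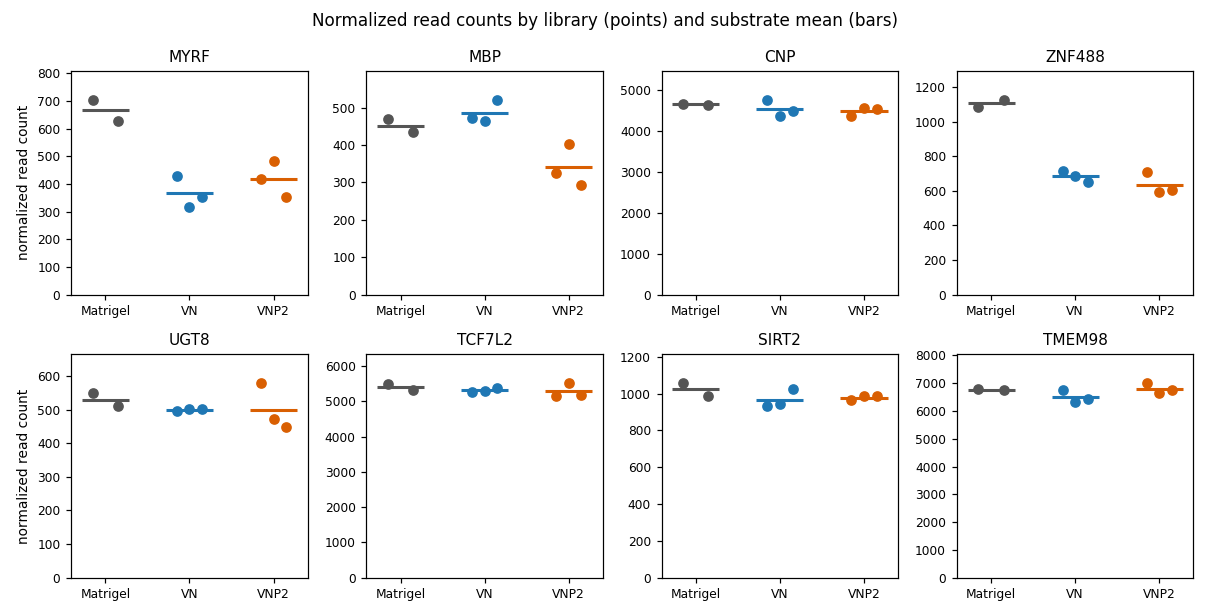
Normalized read counts of the 8 genes tested, with 1 point per library and a bar at the mean of each substrate; each axis begins at 0. MYRF and ZNF488 are highest in both Matrigel libraries, and MBP is lowest in the 3 VNP2 libraries.

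Between VN and Matrigel 2 of 8 genes were called, both lower (all genes tested: 15.3% called, 5.66% higher and 9.6% lower), and libraries did not overlap for 3 of 8 (all genes: 44.4%). Between VNP2 and Matrigel 3 of 8 were called, all lower (all genes: 16.6%, with 7.44% higher and 9.13% lower), and 5 of 8 did not overlap (all genes: 48.1%). Between VNP2 and VN 1 of 8, MBP, was called, lower (all genes: 5.1%, with 3.09% higher and 2.01% lower), and MBP alone did not overlap (all genes: 23.6%). The shares called among the 8 genes, 25%, 37.5% and 12.5% in the 3 pairs, rest on 1 to 3 genes each. The median log2 change of the 8 was -0.07 on VN and -0.08 on VNP2, against 0.00 over all genes in both. The comparisons with Matrigel share its 2 libraries.

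**Figure D4:**
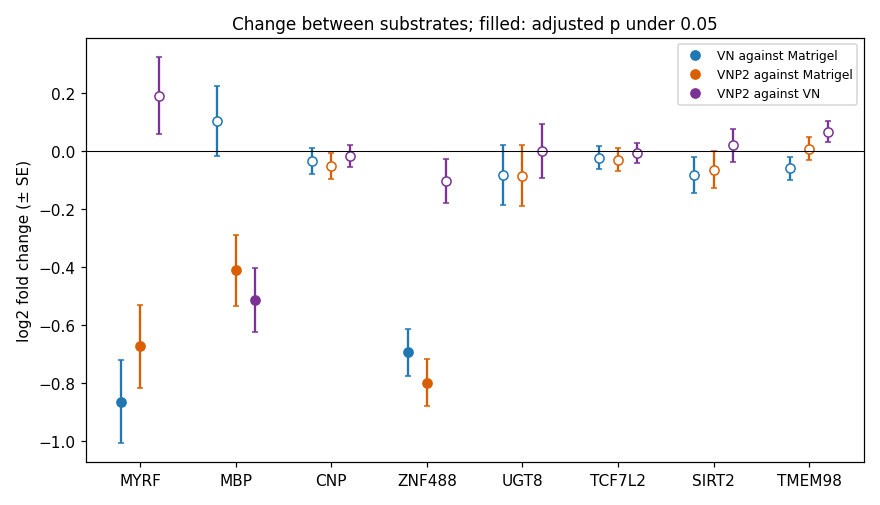
Log2 fold change with its standard error for the 8 genes tested in the 3 pairs of substrates; filled points passed the edgeR test at an adjusted p under 0.05. MYRF and ZNF488 are filled in both comparisons with Matrigel, MBP in both comparisons of VNP2, and the other 5 genes stay within 0.1 of 0.

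The share of the main transcript passed the test in none of 7 genes, where 0 of 7 also had an unadjusted p under 0.05. Of these 7 genes with several transcripts, MBP-205 had the largest part of the variance in its share between substrates (56.3%, p = 0.129, adjusted p = 0.838, exact permutation test, one-sided), where the smallest p the design allows is 0.00357. The coding sequence of CNP begins at either of 2 start codons, and the transcript with the shorter one prevailed. CNP-201 of 401 codons held 84.8% ± 1.32 of the TPM (SD, n = 8) and 83.1% of the estimated counts. CNP-202 of 421 codons, which adds a mitochondrial targeting stretch at the front, held 7.03% ± 1.0 and 14.1%. These are shares of transcripts, and the proteins were not measured here. The beginning that is particular to CNP-202 is shown beside that of CNP-201.

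CNP-201: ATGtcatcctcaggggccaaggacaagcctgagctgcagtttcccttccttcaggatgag

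CNP-202: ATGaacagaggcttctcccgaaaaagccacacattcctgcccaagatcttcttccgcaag

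The CNP-202 run ends at chr17:41968124, and the CNP-201 start codon begins at chr17:41968125. CNP overlaps DNAJC7 on the opposite strand, and SIRT2 overlaps NFKBIB.

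Genes that act with these 9 moved in both directions. In the mature sheath, 9 of 20 genes were tested. CLDN11, the tight junction protein of myelin, had normalized counts of 270 and 274 with Matrigel, 189, 182 and 152 with VN, and 139, 143 and 142 with VNP2, so that the substrates did not overlap. It fell by 0.64 on VN (SE 0.118, edgeR adjusted p = 0.00527) and by 0.94 on VNP2 (SE 0.119, adjusted p = 0.000346).

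TSPAN2, a tetraspanin of the sheath, also fell, by 0.45 on VN and 0.47 on VNP2 (adjusted p = 0.000981 and 0.000547, edgeR). NFASC, an adhesion protein that neurons make as well, rose by 0.38 and 0.32 (adjusted p = 0.0115 and 0.0205), and CNTN2, also shared with neurons, rose on VN.

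Among 11 tested transcription factors of the lineage, 6 rose on VN and 7 on VNP2 and none fell. Of all genes tested, 5.66% were higher and 9.6% lower on VN, and 7.44% were higher and 9.13% lower on VNP2. This list and the others were chosen with earlier results of these data known. OLIG2, the partner of ZNF488, rose by 0.30 on VN (SE 0.0528, edgeR adjusted p = 0.00363) and by 0.23 on VNP2 (SE 0.0528, adjusted p = 0.0133). ST18 rose by 0.88 and 1.05 (adjusted p = 0.000134 and 2.41e-05).

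Inhibitors of differentiation also included genes that rose. Of 9 tested, 4 rose on VN (ID4, HES1, HES5 and SOX5) and 4 on VNP2 (ID2, HES1, SOX5 and LINGO1). The share higher over all genes was 5.66% on VN and 7.44% on VNP2, for these genes and for those of the OPC stage below. HES5, a target of Notch, rose by 0.62 on VN (SE 0.0825, edgeR adjusted p = 0.000678). LINGO1, a membrane inhibitor of myelination, rose by 0.33 on VNP2 (SE 0.0636, adjusted p = 0.00549). Of 8 genes of the OPC stage, 3 rose on VN and 5 on VNP2, PDGFRA, the growth factor receptor of OPCs, among the latter (log2 change 0.33, SE 0.0648, adjusted p = 0.00592).

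In the pathways of UGT8 and TCF7L2 the shares called rest on 1 or 2 genes each. They were 14.3% on VN and 28.6% on VNP2 for the former and 10% on both for the latter (all genes: 15.3% called on VN and 16.6% on VNP2). Of 7 genes of galactolipid synthesis and breakdown that were tested, DEGS1 fell on VN, and DEGS1 and CERS2, both enzymes of ceramide synthesis, fell on VNP2. Of 10 genes of the TCF/LEF factors and the beta-catenin pathway, CTNNB1, which encodes beta-catenin, fell on VN and APC rose on VNP2. AXIN2, a target of that pathway, had mean normalized counts of 725 with Matrigel, 825 with VN and 860 with VNP2 and was not called in any pair.

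Markers of other cell types moved beside these results. For comparison, 5.66% of all genes tested were higher and 9.6% lower on VN, and 7.44% were higher and 9.13% lower on VNP2. Of 7 epithelial markers, 3 were lower on VN (KRT8, KRT18 and CLDN4) and 6 on VNP2. KRT8, a keratin, fell by 0.84 and 0.66 on the log2 scale (edgeR adjusted p = 6.01e-07 and 1.94e-06). On VN the epithelial adhesion genes CDH1 and EPCAM had log2 changes of 0.12 and -0.05 and were not called (adjusted p = 0.76 and 0.818). The epithelial marker ESRP1 was higher on VN, with normalized counts of 17.9 and 26.9 with Matrigel and 36.7, 33.0 and 41.2 with VN. KRT19 had means of 19.6 with Matrigel and 16.4 with VN. Neither ESRP1 nor KRT19 was called on VN. Of 10 neuronal markers, 5 rose and 1 fell on VN, and 6 rose on VNP2. MYRF, ZNF488 and CLDN11 were lower in the same comparisons as KRT8, KRT18 and CLDN4, and the part of epithelial cells in the result was not tested.

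Of 8 mesenchymal markers, 3 were higher and 2 lower on VN, and 5 were higher and 2 lower on VNP2, with COL1A1 and PRRX1 the lower ones in both. Of 6 markers of pluripotent cells, LIN28A was lower on VN, and POU5F1, LIN28A and TDGF1 were lower and DPPA4 higher on VNP2. Of 4 pigment cell markers tested, DCT was higher on VN and MITF lower on VNP2. Of 5 astrocyte markers tested, GJA1 was lower on both, and SLC1A3 was higher on VNP2.

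Markers of several cell types differed between VNP2 and both other coatings, as MBP did. POU5F1, a pluripotency factor, had normalized counts of 123 and 127 with Matrigel, 155, 135 and 170 with VN, and 39, 65.6 and 51.1 with VNP2. It fell on VNP2 by 1.26 on the log2 scale from Matrigel (SE 0.203, edgeR adjusted p = 0.00176) and by 1.56 from VN (SE 0.182, adjusted p = 0.000767). TDGF1, CDH1, ESRP1, MITF and COL1A1 were likewise lower on VNP2 than on both. COL3A1, SLC1A3, STMN2 and DCX were higher on VNP2 than on both. Members of a list thus differed in direction. Between VNP2 and VN, 2 of 6 pluripotency markers were lower and 0 higher. Of 7 epithelial markers 2 were lower and 1, KRT8, higher. Of 8 mesenchymal markers 1 was lower and 2, COL3A1 and PDGFRB, higher. Of 4 pigment cell markers tested 3 were lower and 0 higher. Of 10 neuronal markers 1 was lower and 3 higher, and of 5 astrocyte markers tested 0 were lower and 2 higher. Of 8 genes of the OPC stage 1, VCAN, was lower and 2, CSPG5 and PTPRZ1, higher (all genes: 2.01% lower and 3.09% higher).

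NGFR, on the list of Schwann cell markers, had normalized counts of 1918 and 1818 with Matrigel, 1819, 1582 and 1685 with VN, and 2388, 2343 and 2441 with VNP2. It rose on VNP2 by 0.36 from Matrigel (SE 0.0609, adjusted p = 0.00259, edgeR) and by 0.50 from VN (SE 0.0543, adjusted p = 0.000533). The 8 Schwann cell markers summed to 32.4 to 34.1 TPM with Matrigel, 30.4 to 33.0 with VN and 38.7 to 42.6 with VNP2. NGFR held most of that sum, with means of 22.8, 21.9 and 30.5 TPM. PMP22 had means of 7.53, 6.77 and 7.03 TPM and PRX of 1.45, 1.56 and 1.57 TPM. Neither was called in any pair. The other 5 markers had a mean under 1 TPM over all libraries. The summed level of the 6 pluripotency markers was 92.4 to 97.5, 83.1 to 85.0 and 76.5 to 80.0 TPM. The part of these cells in the MBP result was not tested.

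Over the 8 libraries, 3 genes were most like each of the called genes by Pearson's r of log2 normalized counts, among 12986 genes with a mean of at least 100. For MYRF they were HSP90AB1 (r = 0.986), LRRC3 (0.985) and PPP6R1 (0.984). For MBP they were NBEAL1 (0.994), MKNK1 (0.967) and UGDH (0.967). For ZNF488 they were ERBB2 (0.992), ADAMTSL4 (0.991) and TXNRD2 (0.991), of which TXNRD2 had mean normalized counts of 962 with Matrigel, 234 with VN and 200.3 with VNP2. These are the highest of many correlations over few libraries and are given as a description.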

How the data were processed

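The authors trimmed reads with Trim Galore and estimated transcript abundances with Salmon on GRCh38.p13, and deposited for each library the estimated counts and TPM per transcript. The authors also deposited a signal table of gene counts normalized with DESeq2 1.27.12. Of 226608 transcripts, 205225 matched GENCODE v29 (GRCh38), and their estimated counts were summed per gene and rounded. After filterByExpr (minimum count 10, minimum total 15), 18201 genes were fitted over all 8 libraries in edgeR 4.0.16 (R 4.3.3; quasi-likelihood, TMM, offsets for transcript length), with two-sided p-values adjusted by Benjamini-Hochberg across the genes tested, and 70795 transcripts likewise. Normalized counts of the 8 genes tested differed from the authors' table by at most 0.1% in any library. Of 122 genes of the lists with a value there, 5 had a mean over 2% lower here, where transcripts that matched no GENCODE v29 entry were left out, namely NOTCH1 (0.818% of the authors' mean), SOX6 (51.5%), PTPRZ1 (78.7%), ELAVL4 (85.4%) and MYT1 (95.5%). The fit was tested on simulated data.

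The genes and lists were chosen with earlier results of these data known. Named genes are the 9 genes, those of the lists, and for each called gene the 3 most correlated over libraries. Alternatives were DESeq2 1.42.0, RLE, no length offsets, no filter, a replicate block, the pair's libraries alone, limma 3.58.1 on the authors' values (pseudocounts 1 and 5), and each library left out. For the lists, limma on the authors' values and the fit without VN replicate 1 were added after seeing the data. Counting error and transcript assignment limit genes of few counts. Single genes of the lists and 1 sequence are not reported here, though the counts of each list include all its genes.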

Additional observations from a re-analysis of the deposited data

How the results depend on the processing

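Of 384 values of log2 change of the 8 genes under 16 alternatives, 355 kept their direction and side of the threshold, 12 kept the direction but lost the call and 17 changed sign. Counts of genes called with single libraries left out ran from 2 to 3 over the 3 substrates, 2 to 2 between VN and Matrigel, 1 to 3 between VNP2 and Matrigel (1 without Matrigel replicate 2) and 0 to 1 between VNP2 and VN. The 1 became 0 without VN replicate 2 or 3 or VNP2 replicate 1 or 3. Of transcripts, 4 were called by DESeq2, 0 with the replicate block, and 0 to 1 with a library left out. MYRF on VNP2 was -0.59 without Matrigel replicate 2.

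Changes of sign concerned no called value. Without length offsets MBP on VN was -0.14, CNP between VNP2 and VN 0.026, TCF7L2 on VN 0.048 and TMEM98 on VNP2 -0.001. With single libraries left out the values that included a reversal ran from -0.044 to 0.02 for CNP, -0.118 to 0.07 for UGT8, -0.04 to 0.011 for TCF7L2 and -0.006 to 0.061 for SIRT2 between VNP2 and VN, from -0.044 to 0.003 for TCF7L2 on VN, and from -0.013 to 0.023 for TMEM98 on VNP2. With the replicate block TMEM98 on VNP2 was -0.017, and MBP between VNP2 and Matrigel was no longer called (-0.39, edgeR adjusted p = 0.0745). With the libraries of the pair alone the latter had an adjusted p of 0.0554. The block changed no other call of the 8 genes. Over all genes tested it raised the calls from 2778 to 3389 between VN and Matrigel. They went from 3016 to 3170 between VNP2 and Matrigel and from 928 to 1146 between VNP2 and VN. Same-numbered libraries did not deviate together (correlations from -0.0451 to 0.0158), so the numbers were not read as a pairing. The upstream share of MBP was 93.9% by estimated counts and 77.4 to 80.6% by TPM with a library left out. The cause was not tested. In 2 fits chosen after seeing the data, calls of the lists shifted by a few genes. By limma on the authors' values SOX6 was lower on VNP2 than on Matrigel (-0.29, adjusted p = 0.0214), no other of the 5 genes that differ from the authors' table changed its calls, and 5 epithelial markers were lower on VNP2. Without VN replicate 1, 2 genes of the OPC stage rose on VN, and 2 galactolipid genes were lower on VN and 3 on VNP2.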
